A study of Homo sapiens with 6 samples.

Results

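U5 is the small nuclear RNA (snRNA) of the spliceosome whose conserved loop contacts the exon ends on both sides of an intron and holds them together for ligation. It carries 2′-O-methyl groups (Nm), added to the ribose by the box C/D enzyme fibrillarin under guide RNAs, and the loop of human U5 is known for the methylated residues Gm37, Um41 and Cm45. The 6 genes described here are RNU5A-1, RNU5B-1, RNU5D-1, RNU5E-1, RNU5F-1 and RNU5E-6P, of 31 annotated genes whose name starts with RNU5. Their positions are the rows of the base count tables that lie inside these GENCODE release 44 genes on the gene's own strand. That gave 346 of the 176343 positions listed under imbalanced dNTP and 326 of the 246881 positions listed under balanced dNTP, with 291 U5 positions in both tables.

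The data are Nm-mut-seq counts from chromatin-associated RNA of HepG2, a human liver cancer cell line. Reverse transcriptase stalls at Nm when dNTP is scarce, and under an imbalanced mix (1 mM dATP with 2 µM of each other dNTP) it misincorporates, so that methylated G, A and C are read as T. The ligated RNA of each of 3 biological replicates was divided between this mix and a balanced control with 1 mM of each dNTP, giving 6 libraries without any treatment of the cells. A methylated U already reads as T, so Um41 and the pseudouridines of the loop cannot appear in the tables. RNA under 200 nt was removed before library construction, and the U5 genes are 115 to 120 nt long, so their reads come from RNA that remained after this step. Of 7 liver marker genes (APOB, ALB, AFP, A2M, FGB, SERPINA1 and APOA1) 6 held listed positions in both tables, and FGB held none.

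The U5 genes lie on chromosomes 15 and 1 (hg38). RNU5A-1 is at chr15:65296051-65296166 and RNU5B-1 at chr15:65304677-65304792, both on the plus strand. RNU5E-1 is at chr1:11908152-11908271 on the plus strand. RNU5D-1 is at chr1:44731055-44731170, RNU5F-1 at chr1:44721786-44721902 and RNU5E-6P at chr1:44819883-44819997, all on the minus strand. Positions are counted 5′ to 3′ on the gene's strand from the annotated 5′ end, and positions matched between genes use the numbering of RNU5A-1.

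All 6 genes share an identical run of 38 nt, from position 26 to position 63, that holds the 3 methylated loop residues. Over their whole length the genes were 78.6% to 94.0% identical, with RNU5A-1 and RNU5B-1 the closest pair. The authors' mapping allowed each read up to 4 places, so one read can be counted at several genes, and the values of the genes at a shared position are not independent of each other. Few positions outside the genes were in the tables, which list only positions with mutated reads and give no depth elsewhere. Within 50 nt of the genes, 5 positions were listed under imbalanced dNTP and 14 under balanced dNTP, and none on the opposite strand inside them.

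The genes differed in depth, the number of reads that cover a position. RNU5B-1 was covered most, with a mean depth over its 65 positions listed in both tables of 3240, 2564 and 2373 reads in the imbalanced libraries of replicates 1, 2 and 3. RNU5E-1 followed with 1200, 1030 and 915 reads, and RNU5A-1 with 1031, 835 and 816 reads. RNU5E-1 was above RNU5A-1 in every library, although their ranges overlapped and their means of 1048 ± 143 and 894 ± 119 (SD, n = 3) differed by about the spread between replicates. RNU5E-6P had 540 ± 120 reads (SD, n = 3), RNU5F-1 199 ± 49.4 reads and RNU5D-1 67.7 ± 8.46 reads over only 7 such positions, and each of these was below the gene before it in all imbalanced libraries. The order was the same under balanced dNTP, from 3285 ± 981 reads (SD, n = 3) for RNU5B-1 to 112 ± 22.0 for RNU5D-1. Each mean covers the positions listed for that gene, which are not the same set in every gene.

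**Figure D1:**
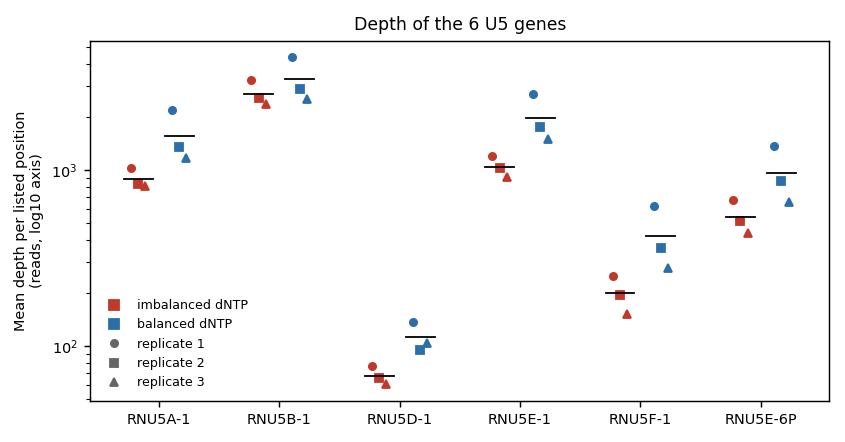
Mean depth per position listed in both tables (reads, log10 axis) for each U5 gene, with 1 point per library, imbalanced dNTP in red, balanced dNTP in blue and the mean of 3 replicates as a black line. RNU5B-1 lies highest in every library and RNU5D-1 lowest.

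The mutation ratio is the share of reads with T at a reference G, A or C. The genes and the positions 37 and 45 were chosen by these ratios, known from earlier results, so the ratios are given as a description without a test. Gm37 had the highest mutation ratio of all listed positions in each of the 5 genes where it was listed. In RNU5A-1 it was 59.5%, 66.7% and 55.9% in replicates 1, 2 and 3, from 336, 300 and 263 reads. In RNU5B-1 it was 53.4%, 59.6% and 48.4%, from 388, 356 and 281 reads. In RNU5F-1, with fewer reads (61, 69 and 36), it was 59.0%, 66.7% and 55.6%. Within each library RNU5B-1 was below RNU5A-1 and RNU5F-1, although the ranges over replicates of the 3 genes overlapped.

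RNU5E-6P had the highest Gm37 ratio, 74.1%, 74.0% and 62.4% from 135, 100 and 109 reads. RNU5E-1 had the lowest and the least even one, 43.6%, 52.9% and 26.7% from 78, 70 and 86 reads. The library of replicate 3 was the lowest of the 3 in all 5 genes. The means over replicates were 60.7% ± 5.48 (SD, n = 3) for RNU5A-1, 53.8% ± 5.59 for RNU5B-1, 41.1% ± 13.2 for RNU5E-1, 60.4% ± 5.69 for RNU5F-1 and 70.2% ± 6.73 for RNU5E-6P. The libraries of RNU5E-1 lay below all those of RNU5A-1, RNU5F-1 and RNU5E-6P and, replicate by replicate, below those of RNU5B-1, which in turn lay below all those of RNU5E-6P. RNU5D-1 had no row for position 37 under imbalanced dNTP, while under balanced dNTP it had 1 read with T of 53 in replicate 1 and 0 of 43 and 0 of 35 in the others. The lowest depth listed anywhere was 5, and unlisted positions have no depth given, so its imbalanced ratio there is not known.

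Under balanced dNTP the Gm37 ratio was far lower but was not at the floor of the gene. It was 2.14% ± 0.202 (SD, n = 3) in RNU5A-1, 2.09% ± 0.492 in RNU5B-1, 1.94% ± 0.740 in RNU5E-1, 1.70% ± 0.634 in RNU5F-1 and 1.95% ± 0.194 in RNU5E-6P. Position 37 was the most mutated balanced position in the first 4 of these genes and the next to highest in RNU5E-6P. The median of the other balanced positions was 0.0817% in RNU5A-1 and 0.0905% in RNU5B-1.

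Cm45, whose guide is SCARNA10, was listed in all 6 genes. It came directly after Gm37 in the 5 genes that list both, and it was the highest of the 21 listed positions of RNU5D-1. In RNU5A-1 it was 24.8%, 24.8% and 28.6% in replicates 1, 2 and 3, and in RNU5B-1 it was 28.1%, 32.8% and 23.0%. RNU5E-1 had 28.9%, 35.0% and 28.5%, and RNU5F-1 had 33.9%, 32.2% and 32.3%. RNU5E-6P again had the highest values, 37.3%, 37.4% and 37.1%, above every library of the other genes. RNU5D-1 had 18.2%, 21.1% and 25%, but from 33, 19 and 32 reads. Under balanced dNTP the means ran from 0.0984% ± 0.114 (SD, n = 3) in RNU5E-1 to 0.606% ± 1.05 in RNU5D-1, where it rests on 1 read with T of 55.

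**Figure D2:**
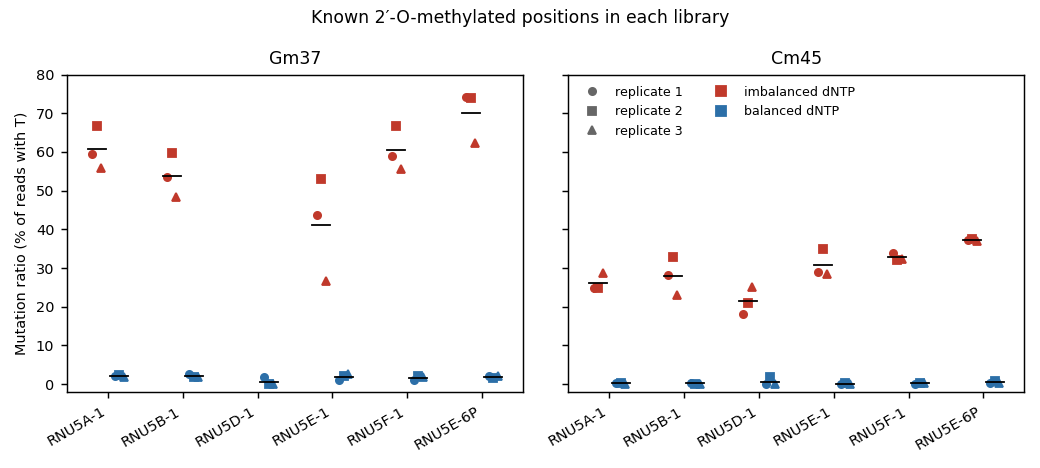
Mutation ratio (% of reads with T) at Gm37 (left) and Cm45 (right) of each U5 gene, with 1 point per library, imbalanced dNTP in red, balanced dNTP in blue and black lines at the mean of 3 replicates. All imbalanced points lie above 18%, all balanced points below 3%, and RNU5D-1 has no imbalanced value at Gm37.

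Against the other positions of the same gene and library the loop residues stood well apart. The ratio at Gm37 divided by the median of the other listed positions was 26.5 ± 1.30 (SD, n = 3) in RNU5A-1, 25.5 ± 3.94 in RNU5B-1, 19.5 ± 4.89 in RNU5E-1, 21.7 ± 1.76 in RNU5F-1 and 28.0 ± 3.76 in RNU5E-6P. For Cm45 this fold ran from 11.5 ± 2.43 in RNU5A-1 to 15.1 ± 3.38 in RNU5E-6P in the same 5 genes. It was only 4.23 ± 1.43 in RNU5D-1, where the few listed positions had a median ratio of 5.62%, against 1.96% to 3.07% in the other genes. Positions are listed only where mutated reads were found, so a thinly covered gene lists those with a high ratio. Of the 110980 positions of the whole table that had 10 or more reads in every imbalanced library, 0.129% to 0.289% had a higher mean ratio than the Gm37 values and 0.334% to 1.59% a higher one than the Cm45 values.

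Outside the loop residues the first transcribed nucleotide ranked next in RNU5A-1, RNU5B-1 and RNU5E-1, and after C6 in RNU5E-6P. A1, which textbook accounts give as methylated beside the cap of U5, had mutation ratios of 26.8%, 22.2% and 19.4% in RNU5A-1, from 127, 90 and 98 reads. In RNU5E-1 A1 had 22.4%, 21.5% and 12.5%, and in RNU5E-6P 19.2%, 19.4% and 25.2%. RNU5B-1 had 10.0%, 13.2% and 14.3%, from 40, 38 and 28 reads. Its balanced means were between 0.0729% and 0.770% in these 4 genes. RNU5F-1 begins with G and RNU5D-1 had no row there. A1 is the last base that reverse transcription copies, next to the ligated adapter, and the part of that place in its ratio was not tested.

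The remaining positions with high ratios lay mostly in the 3′ part of the RNA, and they recurred among the genes. G57 had mean ratios from 7.29% to 10.8% over all 6 genes and G95 from 8.49% to 14.7%. G103 reached 11.8% ± 1.01 (SD, n = 3) in RNU5A-1, 12.1% ± 0.161 in RNU5B-1 and, as position 104 of that gene, 15.1% ± 3.10 in RNU5F-1, but 7.56% ± 0.882 in RNU5E-1. The depth behind these values differed, since G103 of RNU5B-1 had 4536 to 6409 reads per library and its match in RNU5F-1 244 to 425. In RNU5E-6P G110 had 12.1% ± 0.834, in RNU5E-1 G73 had 9.83% ± 0.613, and in RNU5B-1 C106 had 7.79% ± 0.594. Other named positions, C85 of RNU5A-1, A84 of RNU5E-1 and A28 of RNU5F-1, had 8.60% ± 0.832, 8.41% ± 1.39 and 9.11% ± 3.17. C36, just 5′ of Gm37, had 8.33% ± 3.94 in RNU5F-1 and 10.3% ± 2.58 in RNU5E-6P. In RNU5D-1 A67 had 9.36% ± 3.76, and G105 and G108, from 12 to 24 reads per library, were at 0% in 1 and 2 of the 3 libraries and had the next means of 13.9% ± 17.3 and 8.33% ± 14.4. These apart, all values in this group lay below every Cm45 value but the lowest library of RNU5D-1, where G103 of RNU5F-1 reached 18.4% in replicate 2 against 18.2%.

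**Figure D3:**
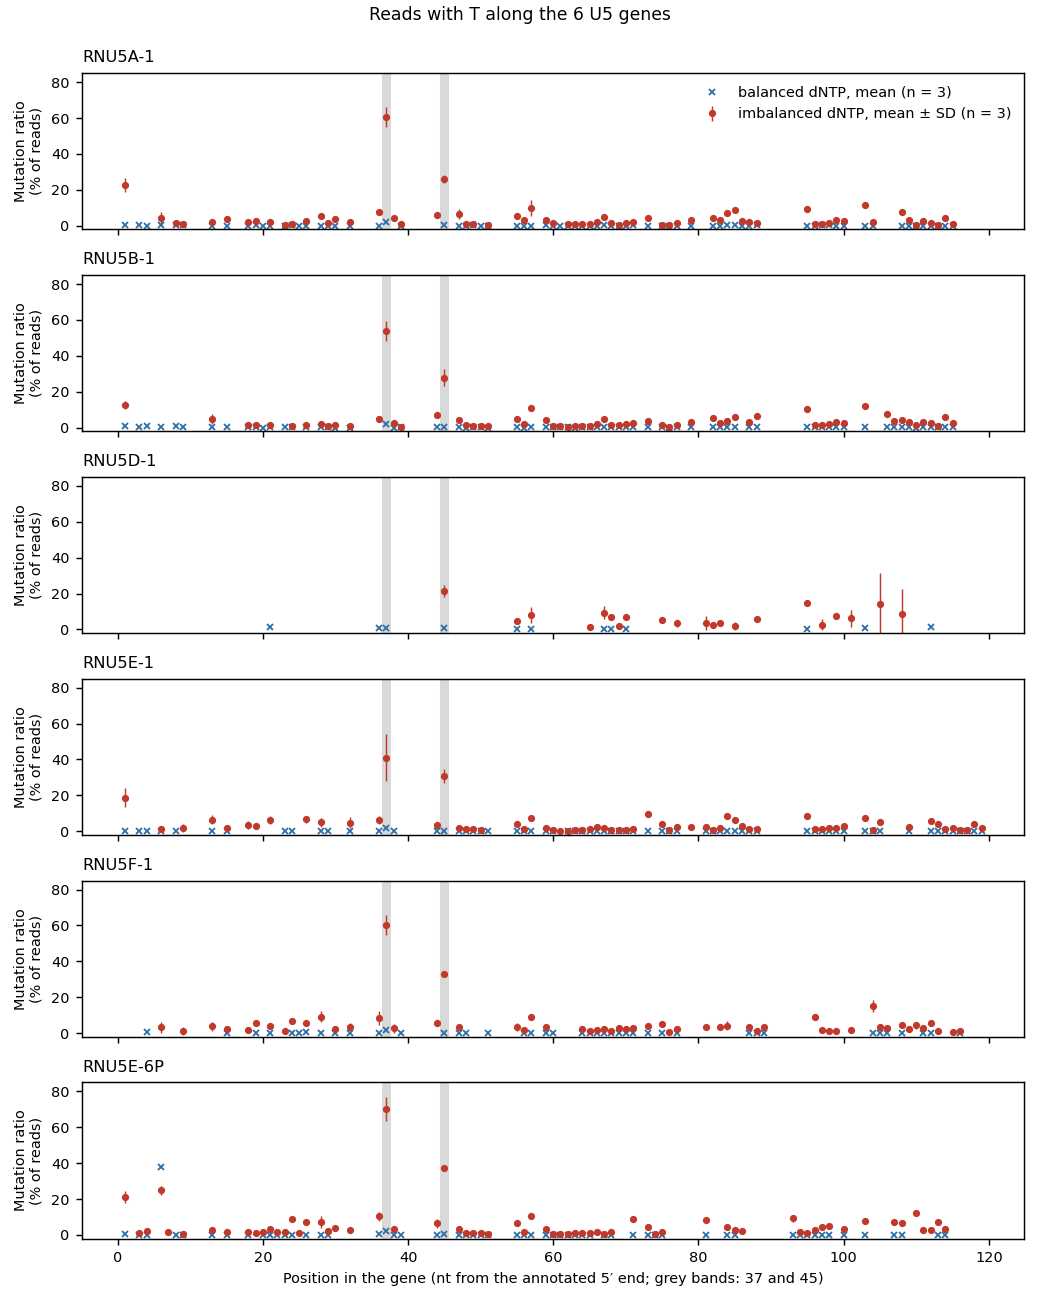
Mutation ratio (% of reads with T) at each listed position of the 6 U5 genes, counted in nt from the annotated 5′ end, with red points and bars for the mean ± SD of 3 imbalanced libraries and blue crosses for the mean of 3 balanced libraries. Grey bands mark positions 37 and 45, the 2 highest red points in 5 genes, and the single high blue cross is C6 of RNU5E-6P at 37.7%.

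C6 of RNU5E-6P was the exception to this pattern, since its reads carried T under both conditions. The ratio was 22.4%, 25% and 26.9% in the imbalanced and 35.6%, 39.5% and 38.1% in the balanced libraries, from 197 to 299 and 352 to 770 reads. Balanced libraries were thus higher in every pair, and the position was not called as methylated. The C at position 6 of RNU5A-1, RNU5B-1 and RNU5E-1 had balanced means of 0.176% ± 0.305 (SD, n = 3), 0.493% ± 0.728 and 0.0616% ± 0.107.

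The study's criteria call a site that in all 3 replicates has 10 or more reads, 3 or more of them with T, and a ratio over 3 times that of the balanced library with the same number. A position without a balanced row passed this last comparison without being compared. The criterion on spike-in background was not applied here. By these criteria 260 of the 346 listed U5 positions were called, or 75.1%, where 16.8% of the whole table was. The called positions were 82 G, 98 A and 80 C. The share was 86.4% in RNU5B-1, 82.6% in RNU5A-1, 77.3% in RNU5E-1, 74.6% in RNU5E-6P, 64.9% in RNU5F-1 and 38.1% in RNU5D-1, in nearly the order of their depth. With only positions listed in both tables, 233 of the 291 such U5 positions were called. Over the whole table such calls made up 10.7% of all 176343 positions listed under imbalanced dNTP. Only 35761 positions of the whole table were in both tables, so this share has a wider base than the U5 count. The criteria ask for few reads and no minimum ratio, and in deep genes they pass at low ratios. In the imbalanced libraries of replicates 1, 2 and 3 the listed U5 positions had a median depth of 589.5, 484.5 and 438 reads. Over the whole table it was 17, 15 and 23 reads. When a ratio of at least 10% in every library was also asked for, 20 U5 positions were left, of which 11 were Gm37 or Cm45, 4 were A1 and the others were G95 of RNU5D-1, G103 of RNU5A-1 and of RNU5B-1, position 104 of RNU5F-1 and G110 of RNU5E-6P.

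Of the 86 positions that were not called, 80 had fewer than 3 reads with T in some library. The other 6 missed only the comparison with the balanced library. Just inside, G113 of RNU5A-1 had ratios of 0.812%, 0.674% and 0.544% against 0%, 0.111% and 0.181% in the balanced libraries. Just outside, A67 of RNU5F-1 had 1.45%, 3.18% and 1.69% against 0.146%, 0% and 0.621%. Exactly 3 reads with T in the lowest library were found at 32 called positions, and exactly 2 at 25 positions not called.

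In edgeR's quasi-likelihood test with Benjamini-Hochberg adjustment, 283 of 291 U5 positions had a higher mutated share under imbalanced dNTP, beside 73.9% of the 32284 positions tested in the whole table. These positions had 10 or more reads in every library. At 50 or more reads 281 of 286 U5 positions were higher, beside 91.5% of the whole table. With TMM factors for mutated and unmutated reads separately, which centre out the general rise, 55 of the 291 were higher beside 5.83%. The same contrast chose the genes, so nothing is read from these counts. C6 of RNU5E-6P was the only U5 position that was lower (log2 change −0.89, adjusted p = 3.44e-05 by edgeR), beside 0.0558% of the whole table. DESeq2 did not make this call (log2 change −0.88, adjusted p = 0.218), and for the same reason nothing is read from either p-value. All tested positions of RNU5B-1, RNU5D-1 and RNU5E-1 were higher, as were 65 of 67 in RNU5A-1, 35 of 36 in RNU5F-1 and 52 of 57 in RNU5E-6P.

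The ratios at the positions other than Gm37 and Cm45 went with the neighbouring base. Positions that follow a U had a median ratio of 4.31% over 106 U5 positions, against 2.84% after C, 1.61% after A and 1.41% after G. The order was the same over the whole table, with medians of 8.21%, 5.36%, 3.61% and 3.35%. Among U5 positions with reference G the median was 7.59% after U and 7.07% after C, but 1.33% after G and 1.05% after A. In replicates 1, 2 and 3 it was 7.01%, 7.15% and 3.92% after U, and 7.55%, 5.56% and 6.93% after C. After U it was thus the higher in replicate 2 only. With reference C the median after A, 2.05%, was below that after G, 2.46%. These medians hold all 6 genes, which share sequence and reads, and they are descriptions. In the loop, Cm45 follows an A and Gm37 a C.

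Depth was not used to choose the genes, and it fell in the loop under imbalanced dNTP. The ratios below are of raw counts, not scaled to library size. Over all listed positions, which differ between conditions, the imbalanced libraries of replicates 1, 2 and 3 held 19703436, 17063930 and 22485865 counted bases. The balanced ones held 34367262, 22974020 and 27600573, so a ratio of 1 does not mark an equal share of the library. Over the 127 positions from 70 to the 3′ end that both tables list, the summed depth under imbalanced dNTP was 0.761, 0.923 and 0.963 times that of the balanced library of the same replicate. Over the 83 positions from 46 to 69 it was 0.404, 0.523 and 0.584 times, over the 18 positions from 37 to 45 it was 0.157, 0.207 and 0.234 times, and 5′ of position 37 it was 0.232, 0.328 and 0.352 times. RNU5B-1 gave 58.3%, 57.0% and 57.6% of the summed imbalanced depth from position 70 on. It was the only gene whose ratio there was above 1, at 1.07, 1.23 and 1.23. Without RNU5B-1 the ratios from the 3′ end inwards were 0.542, 0.695 and 0.742, then 0.414, 0.533 and 0.585, then 0.176, 0.218 and 0.267, and 5′ of position 37 they were 0.275, 0.392 and 0.429. With or without it, the ratio fell from the 3′ end to the methylated loop in every replicate and rose again in part beyond it. Between the 3′ side of position 45 and the 5′ side of position 37 the change was 1.47, 1.27 and 1.27 on the log2 scale, a mean of 1.34 ± 0.11 (SD, n = 3 pairs), and without RNU5B-1 it was 0.76 ± 0.09. An exact permutation test of the pairs, two-sided, gave p = 0.250, the lowest value that 3 pairs can reach.

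The size of this step differed among the genes. It was largest in RNU5B-1, at 2.67, 2.39 and 2.48 on the log2 scale, and smallest in RNU5E-6P, at 0.77, 0.68 and 0.70. RNU5A-1 had a mean of 0.82 ± 0.12 (SD, n = 3), RNU5F-1 0.92 ± 0.35 and RNU5E-1 1.48 ± 0.24. In RNU5E-1, RNU5F-1, RNU5A-1 and RNU5E-6P the lowest ratio of all positions lay between positions 36 and 47 in each of the 12 comparisons of paired libraries. At position 37 itself, imbalanced depth was 0.0784, 0.110 and 0.180 times balanced depth in RNU5E-1 and 0.132, 0.144 and 0.225 times in RNU5E-6P. At the first base of these genes it had come back to 0.214, 0.304 and 0.340 times and to 0.385, 0.595 and 0.488 times. RNU5B-1 did not come back, as its ratio was 0.126, 0.183 and 0.178 times at position 37 and 0.108, 0.169 and 0.172 times at position 1. Mapping allowed at most 3 mismatches in a read, and the parts of mutated reads lost in mapping and of reverse transcription that ended early were not tested.

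**Figure D4:**
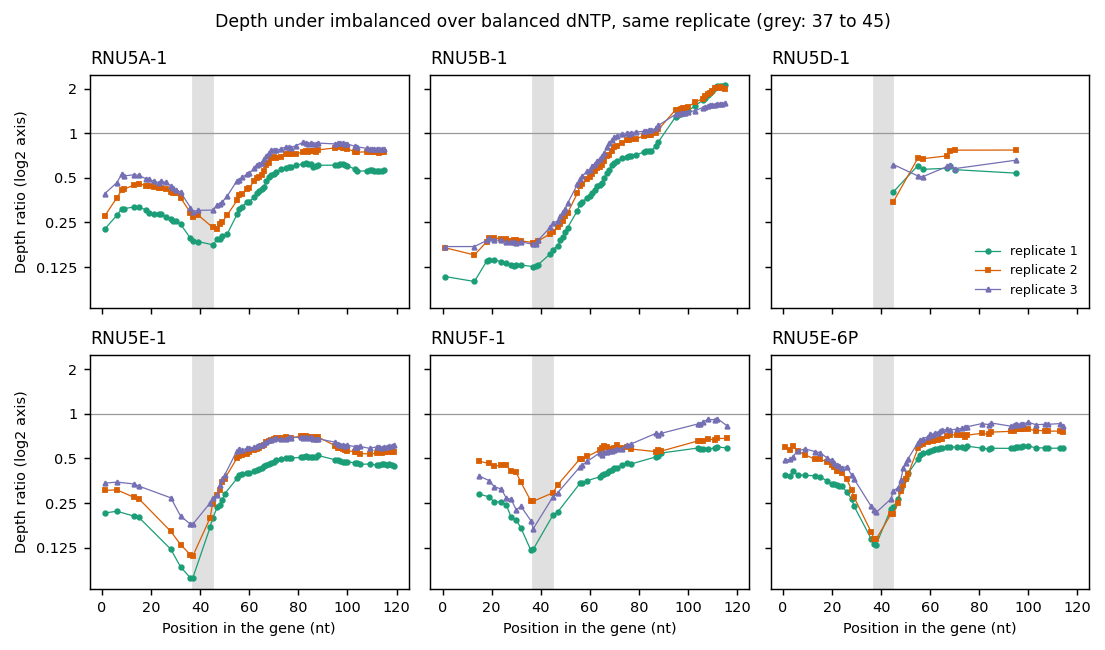
Depth under imbalanced dNTP divided by depth under balanced dNTP in the same replicate (log2 axis) at each position listed in both tables, with 1 line per replicate and a grey band from position 37 to 45. In 4 genes the lines have their lowest point between 36 and 47 and rise again towards the 5′ end, whereas in RNU5B-1 they stay low, and RNU5D-1 has 7 positions.

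Mismatches other than T were rare. Of the bases counted at U5 positions listed in both tables, they took 0.664% ± 0.00608 (SD, n = 3) under imbalanced and 0.830% ± 0.00563 under balanced dNTP. The share under imbalanced dNTP was lower in all 3 pairs (p = 0.250 in the two-sided exact permutation of pairs, its smallest value). Most of them stood at 4 positions. Over the other positions the shares were 0.289% ± 0.00565 and 0.279% ± 0.00662, now higher under imbalanced dNTP in all 3 pairs (p = 0.250 in the same exact permutation test), so the direction rests on those 4.

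The 4 positions carried a second base in both conditions. In RNU5E-1, A65G (positions from 1 at the annotated 5′ end, reference base first) was in 47.3% ± 3.07 (SD, n = 3) of imbalanced and 57.4% ± 1.15 of balanced reads, and G105A in 47.5% ± 1.99 and 51.2% ± 1.49. C109A of the same gene was in 5.81% ± 1.14 and 6.53% ± 0.659. In RNU5F-1, A64G was in 33.0% ± 6.73 and 35.8% ± 6.06. The base read at position 64 of RNU5F-1 is the one that the other 5 genes have at their position 64, and that read at position 65 of RNU5E-1 is the one of RNU5A-1 and RNU5B-1. By each gene's own count, the base of C109A is that of RNU5B-1 at 109, whereas that of G105A is in none of the other 5 genes at 105. These are not matched positions. In the alignment, position 109 of RNU5E-1 matches position 105, where RNU5B-1 has T, and position 105 of RNU5E-1 matches none. The part of reads from other copies and of differences between HepG2 and hg38 in these shares was not tested. At positions 37 and 45 all 6 genes carry G and C, and the share of T in the balanced libraries stayed below 3%.

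The other snRNAs of the spliceosome, taken as groups, and the guide RNA SCARNA10 gave lower shares of called positions. The U1 group includes variant genes and copies, and 14 of its 33 annotated genes held listed positions. U4 had 63.4% of 123 listed positions called, U2 50.6% of 77, the minor spliceosome RNAs 42.1% of 178, U1 37.7% of 297 and SCARNA10 28.9% of 128, and no U6 gene held a listed position. Their lowest depth over the imbalanced libraries had medians of 341, 210, 137.5, 66 and 74.5 reads, against 435 reads in the U5 genes. Across these groups shares and depths fell in nearly the same order. The other annotated U5 copies did not follow it, with a higher share than the minor spliceosome RNAs, U1 and SCARNA10 at a lower depth. The median of the mean ratios was 2.62% over the U5 positions, 2.44% in U4, 1.83% in U2, 3.13% in the minor spliceosome RNAs, 5.60% in U1 and 3.78% in SCARNA10. The highest mean ratio was 70.2% in these U5 genes, 58.6% in U1, 19.7% in U2 and 19.2% in U4. Among the other annotated U5 copies, with 47.2% of 89 listed positions called and a median lowest depth of 56 reads, it was 98.5% ± 2.57 (SD, n = 3) at position 37 of RNU5F-6P. That position is counted from the copy's own 5′ end, was not matched to the U5 numbering, and had no balanced row to compare with. Mean ratios above 20% at 10 or more reads were found at 14 of the 346 listed U5 positions. The uncalled C6 of RNU5E-6P is among them. They were also found at 13 of the 89 positions of the other copies and at 9 of the 297 U1 positions. U2, U4, the minor spliceosome RNAs and SCARNA10 had none. In the whole table, 1.59% of the positions at 10 or more reads had a mean ratio above 21.4%. Of the 13 in the other copies, 2 had a balanced row. The differences between the groups were not tested.

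Summed over all positions that both tables list, T made up 3.71%, 3.88% and 3.51% of the bases counted in RNU5B-1 under imbalanced dNTP. Under balanced dNTP it was 0.119%, 0.125% and 0.109%. Of 309 genes with at least 20 such positions, those nearest to it over the 6 libraries, by the distance of log2 ratios, were the noncoding gene SNHG16 (distance 0.12), the paraspeckle RNA NEAT1 (0.18) and the box H/ACA snoRNA SNORA71A (0.19), outside the U5 genes. RNU5A-1 lay at 0.28, RNU5F-1 at 1.21, RNU5E-1 at 1.48 and RNU5E-6P at 3.47, the last with balanced ratios of 0.483%, 0.431% and 0.486%. Without C6 these were 0.135%, 0.113% and 0.129%, and the distance of RNU5E-6P was 0.43.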

How the data were processed

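Nm-mut-seq was performed on chromatin-associated RNA of HepG2 cells, as 3 biological replicates with 2 reverse transcriptions each. The authors trimmed adapters (cutadapt), removed duplicates by molecular identifiers, mapped reads to hg38 with TopHat2 allowing up to 4 places, and counted bases per position and strand with JACUSA. The deposited values are raw counts of reads with each base, and depth is their sum. The lowest depth listed was 5. Listed positions held 17063930 to 34367262 counted bases per library, of which the U5 genes took 1.36% to 2.11%. Intervals are not given, and the SD covers the spread between replicates.

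Genes came from GENCODE release 44, sequences from hg38, and the alignment to RNU5A-1 gave the U5 positions (Biopython 1.88). For reads with and without T the model was edgeR 4.0.16 (R 4.3.3), over positions that had 10 or more reads in each of 6 libraries, with library effects and the replicate as a block, after the fit was tested on simulated data. Alternatives were DESeq2 1.42.0 and Fisher's exact test. The replicate numbers pair the libraries, since each pair came from one ligated RNA, and deviations of log2 depth correlated at 0.51, 0.34 and 0.72 within pairs 1, 2 and 3, though at 0.39 and 0.34 between replicates 1 and 2 of the 2 groups. Permutation tests used scipy 1.17.1. Named positions were 37, 45, the 5 others with the highest mean ratio per gene, and those next to the calling limits. The genes, lists and tests were chosen with earlier results of these data known. The spike-in was not analysed here, and the sequences of the genes are not reported here.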

Additional observations from a re-analysis of the deposited data

How the results depend on the processing

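With other calling limits (a depth of 20 or 50, 5 reads with T, 5 times the input, only positions in both tables) 213 to 259 U5 positions were called beside 10.7% to 16.2% of the whole table, and 264 beside 17.1% with the input summed without the replicate pairing. These shares are of all positions listed under imbalanced dNTP, also where only positions in both tables could be called. A minimum ratio of 5% left 64 and one of 10% left 20, where the whole table kept 5.27% and 1.69%. Leaving out 1 replicate gave 268 to 288 calls (19.4% to 22.1% of the whole table) and 239 to 260 positions higher by edgeR (55.0% to 58.6%). Without the replicate block edgeR gave 288 (83.4%), DESeq2 276 (76.1%) and none lower, and Fisher's exact test in every replicate 210 (46.9%). In edgeR a minimum depth of 5 gave 282 (66.1%) and one of 50 gave 281 of 286 (91.5%). TMM factors computed separately for mutated and unmutated reads, which centre out the general rise, gave 55 higher and 1 lower (1881 and 368 over the whole table, against 23850 and 18), and TMM of the depth left 283. The median over the genes of the fold at Gm37, 24.2, was 17.2 against the mean of the others, 31.0 against other G, 29.4 with unlisted positions at 0 and 26.8 at a depth of 100, where 3 genes were left. For Cm45 12.7 became 9.10, 10.6 against other C, 16.4 (RNU5D-1 had no value, its median being 0) and 14.5, where 4 genes were left. Without 1 replicate these folds were 23.2 to 24.8 and 12.1 to 13.2, the depth step 1.27 to 1.37 (0.76 without RNU5B-1, chosen after seeing the data), and the difference in other mismatches −0.168 to −0.165 percentage points. That difference, −0.167, was 0.0103 without the 4 positions at a share of 5% or more, an alternative chosen after seeing the data. Depth limits Gm37 of RNU5F-1 and RNU5E-1 and all of RNU5D-1.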

Other observations

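Among the 25 other annotated U5 copies, 2 hold the 38-nt run shared by the genes above, and both were listed at the bases that match Gm37 and Cm45. RNU5A-8P, at chr1:210374154-210374267 on the minus strand, had mutation ratios of 57.1%, 56.8% and 56.1% at its G35, which matches Gm37, from 42, 44 and 41 reads. Its C43, which matches Cm45, had 31.9%, 43.0% and 31.9% from 91, 79 and 69 reads. These were the highest and next highest of its 48 listed positions, the following one had 12.7% ± 3.57 (SD, n = 3), and the median of the others was 2.90%. Under balanced dNTP the means were 2.45% ± 1.64 and 0.287% ± 0.251 (SD, n = 3). RNU5E-4P, on chromosome 1, had 36.4%, 38.5% and 33.3% at the first of these bases, from only 11, 13 and 15 reads, and 38.2%, 40.6% and 25% at the other. A read may be counted at up to 4 places, so these values can hold reads of the genes above, and their share was not tested.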
